A study of Mus musculus with 36 samples.

Results

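The comparison described here is the late step of the TGF-β1 response of mouse common dendritic cell progenitors (CDP), 24 h against 12 h of stimulation. It rests on 6 of the 36 arrays of the series, 3 of CDP at 12 h and 3 of CDP at 24 h, chosen by their cell type and time labels alone. The series followed CDP and multipotent progenitors (MPP), both grown from mouse bone marrow with a cytokine cocktail and sorted by FACS, at 0, 2, 4, 8, 12 and 24 h of TGF-β1, with 3 arrays (Affymetrix Mouse Gene 1.0 ST) for each cell type and time. Both CDP groups were given 10 ng/ml recombinant human TGF-β1, so the stimulus is shared and the groups differ in its duration, 12 or 24 h. No strain, age or genetic change is given in the labels. No untreated CDP cultured for 12 or 24 h were analysed here, so longer TGF-β1 and longer culture cannot be told apart. The cells are those of a culture and not freshly isolated progenitors. By the study's account the replicates are biological.

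TGF-β1 binds a receptor kinase pair that phosphorylates Smad2 and Smad3, which enter the nucleus with Smad4 and turn on target genes, among them inhibitors of the pathway itself such as Smad7 and Skil. CDP can become plasmacytoid or conventional dendritic cells and have lost most of the potential for other blood lineages. TGF-β1 is known in this lineage as a factor that Langerhans cells need to develop. These dendritic cells of the skin surface carry epithelial adhesion genes.

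Array values are log2 intensities, so a difference of 1 is a doubling of signal. A gene is called here at a Benjamini-Hochberg adjusted p under 0.01 in limma, over 19938 genes, together with a log2 difference of at least 1 in size. Errors are standard errors (SE) of the fit, with 3 arrays a group. Arrays of the 12 h group correlated at 0.9962 to 0.9979 and those of the 24 h group at 0.9925 to 0.9965. Replicate 1 carried high Y-linked and low Xist signal at both times (Xist 7.08 and 6.84, against 13.57 to 13.74 on the other 4 arrays). The cells carried markers of dendritic progenitors at both times. The receptor gene Flt3 had a mean level of 13.17 and 13.02, Csf1r of 12.93 and 12.45, and the lineage factor Irf8 of 13.15 and 12.49. MPP carried them too at 12 and 24 h (Flt3 11.42 and 11.42, Csf1r 12.99 and 12.73, Irf8 12.96 and 12.95). Only Flt3 was higher in CDP than in MPP at both times. The second 24 h array stood apart from the others in inflammatory genes, as described further on.

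Between 12 and 24 h, 30 genes rose and 56 fell in CDP. These 86 genes are 0.431% of those tested, the higher ones 0.15% and the lower ones 0.281%. Between arrays of the same replicate number, all 86 kept their direction in 3 of 3 pairs. The calls were made from these same pairs, so this describes the called genes and is no test of them. In 77 of the 86 the arrays of the 2 groups did not overlap, as was so for 22.6% of all genes (8.78% higher, 13.8% lower), and this shares its contrast with the calls. The median log2 difference over all genes was 0.002. At the adjusted p alone, without the fold limit, 912 genes passed (4.57%), 237 of them higher (1.19%) and 675 lower (3.39%). The genes that rose were led by Fam189a2, the lipid mediator enzyme gene Alox5, the stem cell factor receptor gene Kit and the junction gene Cldn1. Those that fell were led by the neutrophil collagenase gene Mmp8 and the fibronectin gene Fn1. The RNA is that of bulk cultures, so fewer cells of a type and less RNA per cell cannot be told apart in any of these changes. Without replicate 1 at all times the count was 49, and without the second 24 h array it was 126.

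**Figure D1:**
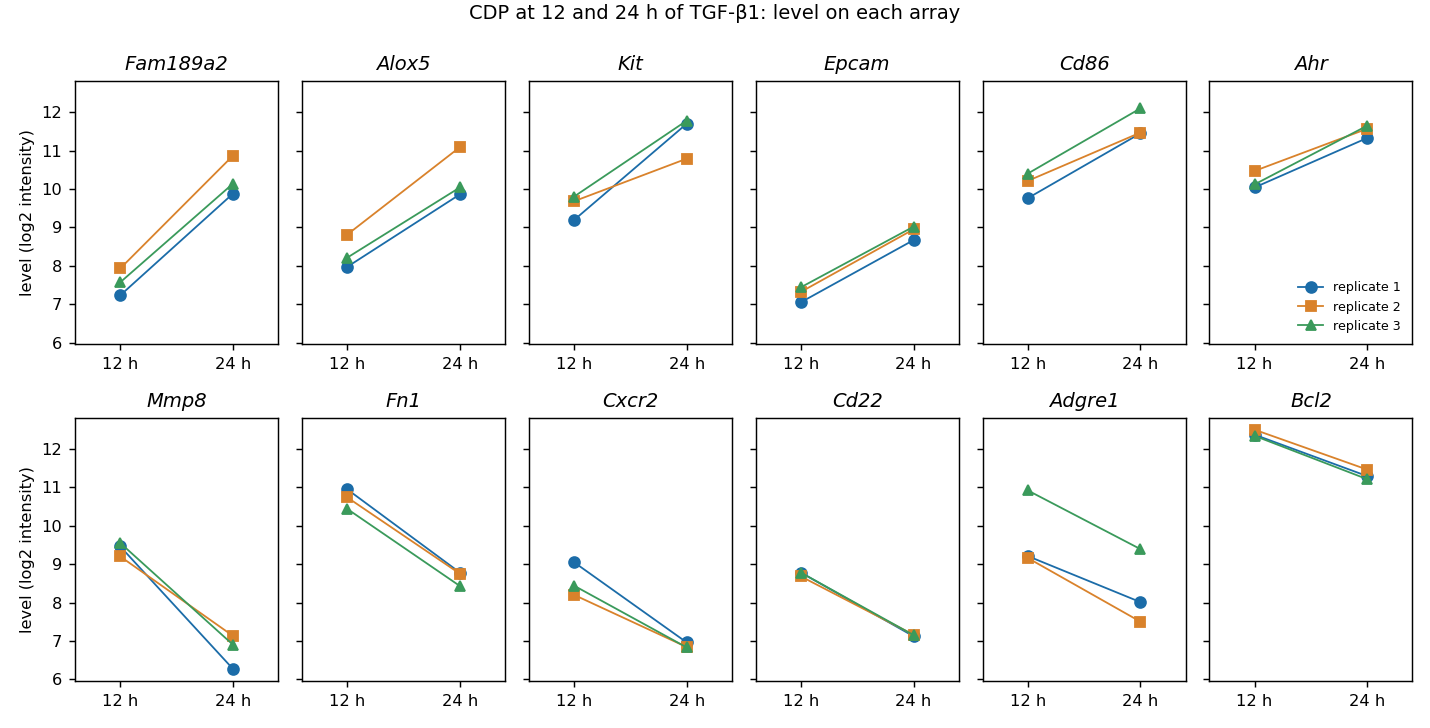
Level of 12 called genes on each CDP array at 12 and 24 h of TGF-β1 (vertical axis, log2 intensity), with lines joining same-numbered arrays. Fam189a2 climbed to between 9.88 and 10.87 and Mmp8 dropped to between 6.27 and 7.13, while the groups of Adgre1 overlap because of replicate 3.

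Fam189a2, which encodes a transmembrane protein of endosomes, was at 7.23, 7.93 and 7.57 on the 12 h arrays and at 9.88, 10.87 and 10.14 on the 24 h arrays. Every 24 h array lay above every 12 h array. The rise was 2.72 ± 0.18 (adjusted p = 7.03e-07), the largest of all called genes. Alox5 encodes 5-lipoxygenase, the enzyme that starts leukotriene synthesis from arachidonic acid. Its levels went from 7.97, 8.81 and 8.21 to 9.86, 11.09 and 10.04, a rise of 2.00 ± 0.19 (adjusted p = 1.79e-05), with replicate 2 highest at both times. Hpgds, the hematopoietic prostaglandin D synthase gene and thus a second enzyme of arachidonate metabolism, rose by 1.36 ± 0.15 from a higher start (10.94, 11.55 and 11.46 to 12.34, 12.94 and 12.75). Genes of this metabolism did not all rise. Tbxas1, the thromboxane synthase gene, was called lower (-1.34 ± 0.10, adjusted p = 2.08e-06). The call of Hpgds was lost without replicate 1 (1.33) and without the replicate block.

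Kit was at 9.19, 9.68 and 9.80 at 12 h and at 11.70, 10.79 and 11.78 at 24 h, a rise of 1.86 ± 0.26 (adjusted p = 0.000471). The groups did not overlap, and the second 24 h array was the lowest of its group. Without replicate 1 the value was 1.54 and the call was lost, as it was with the 6 arrays alone. Kit is a marker of stem and progenitor cells and also of mast cells. It was the 1 called gene of 20 measured stem and progenitor genes (0.15% of all genes were called higher). Of these genes 8 were higher and 12 lower, with a median of -0.068. The mast cell protease gene Cpa3 rose as well, from 6.59, 6.21 and 6.34 to 8.12, 7.54 and 7.80 (1.44 ± 0.09, adjusted p = 7.03e-07). Kit and Cpa3 were the 2 called genes among 19 measured mast cell and basophil markers, both higher (0.15% of all genes), and the list median was 0.043. The high-affinity IgE receptor genes Fcer1a (6.12 and 6.11) and Ms4a2 (6.26 and 6.21) and the protease genes Mcpt8 (6.36 and 6.15) and Cma1 (5.99 and 5.96) were dim at both times by their group means.

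Langerhans and epithelial genes had 3 called members of 19, all higher (0.15% of all genes), and the list median was 0.128. Cldn1, a tight junction gene, reached 12.99, 12.60 and 13.18 from 10.84, 11.15 and 11.47, which is a rise of 1.77 ± 0.18 (adjusted p = 3.30e-05). Epcam, which encodes an adhesion molecule of epithelia and Langerhans cells, went from 7.05, 7.32 and 7.44 to 8.67, 8.95 and 9.02 (1.61 ± 0.08, adjusted p = 1.22e-07). Neither gene had an array of one group inside the range of the other. The integrin αE gene Itgae rose by 1.58 ± 0.16, from 10.53, 10.95 and 10.49 to 11.94, 12.35 and 12.42, and its call was lost without replicate 1 although the value was 1.67. The tight junction scaffold genes Tjp1 (0.85 ± 0.13, adjusted p = 0.000822) and Tjp3 (0.42 ± 0.08, adjusted p = 0.00295) passed the adjusted p but not the fold limit. The E-cadherin gene Cdh1 was at 11.76, 12.02 and 11.80 and then at 12.53, 12.94 and 12.73, without overlap, yet its adjusted p was 0.0375 (0.88 ± 0.24). Langerin itself, encoded by Cd207, was dim at both times (group means 6.18 and 6.10).

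Of the other genes with the largest rises, Ahr encodes the aryl hydrocarbon receptor, a transcription factor that senses ligands from diet and microbes. It was at 10.04, 10.47 and 10.12 at 12 h and at 11.33, 11.57 and 11.65 at 24 h (1.31 ± 0.13, adjusted p = 2.95e-05). Cd86, a costimulatory ligand gene, went from 9.76, 10.21 and 10.40 to 11.45, 11.47 and 12.10 (1.55 ± 0.19, adjusted p = 0.00016). All 24 h arrays were above all 12 h arrays for both genes. The G protein subunit gene Gna14 rose by 1.42 ± 0.11, the ATP-gated channel gene P2rx5 by 1.37 ± 0.21, Rab38, a GTPase gene of lysosome-related organelles, by 1.30 ± 0.12, and the endolysosomal channel gene Mcoln2 by 1.23 ± 0.11. Ttc39b rose by 1.54 ± 0.23, and its other probe set gave 1.28 ± 0.31. Calls were lost without replicate 1 for Cd86 (1.48), P2rx5 (1.65) and Ttc39b (1.82), without replicate 2 for P2rx5 (1.24) and without replicate 3 for Ttc39b (1.57).

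Neutrophil genes held 6 called members of 24, all lower (0.281% of all genes), while the median of the list was -0.018. Mmp8 was at 9.46, 9.20 and 9.55 at 12 h and at 6.27, 7.13 and 6.90 at 24 h. This fall of 2.64 ± 0.18 on the log2 scale (6.24-fold, adjusted p = 1.21e-06) was the largest of all called genes. The azurophil granule protease genes Ctsg, for cathepsin G, and Prtn3, for proteinase 3, fell by 1.28 ± 0.10 and by 1.09 ± 0.12. Ctsg went from 9.50, 9.09 and 8.83 to 8.06, 7.68 and 7.84, and Prtn3, still bright, from 12.36, 12.01 and 11.96 to 11.13, 11.34 and 10.59. For all 3 protease genes each 24 h array lay below each 12 h array. Cxcr2, the chemokine receptor gene that guides neutrophils, fell by 1.69 ± 0.25 to between 6.83 and 6.96. The G-CSF receptor gene Csf3r fell by 1.01 ± 0.09 and Hp, which encodes haptoglobin, by 1.20 ± 0.20.

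The calls of several neutrophil genes were lost when a single array or a whole replicate number was left out. Prtn3 was at -1.02, -0.95 and -0.96 without replicate 1, replicate 3 and the third 24 h array, and no longer called. Without replicate 1 the calls of Cxcr2 (-1.49) and Hp (-1.22) were lost, and without replicate 2 those of Cxcr2 (-1.85) and Hp (-1.08). Hp was also no longer called without the third 12 h array (-1.12) or the first 24 h array (-1.14). Csf3r lay just inside the fold limit, and was under it without replicate 3 (-0.89), the third 12 h array (-0.91), the second 24 h array (-0.98) or the third 24 h array (-0.97). Other granule genes of the list were not called lower. Elane, for neutrophil elastase, differed by -0.12 ± 0.12 (adjusted p = 0.674), Mpo, for myeloperoxidase, by 0.04 ± 0.19 (adjusted p = 0.949), and Ngp by 0.49 ± 0.10 (adjusted p = 0.00805). The mature neutrophil marker Ly6g was dim at both times (6.49 and 6.51).

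Promoter windows from RefSeq (build GRCm38.p6), which span the start of each gene, were matched by symbol to 41 of the 56 genes that fell and 20 of the 30 that rose. The letters GAGGAAGT, a site of the myeloid factor PU.1, were searched on both strands and stood in 5 of 50 windows of the lower genes (10%), 1 of 24 windows of the higher genes (4.17%) and 2.77% of the 19177 windows of all tested genes. Several windows of 1 gene can overlap, and a match of letters is a description and not a binding site. The windows of Mmp8, Prtn3 and Cd300ld are printed because they hold these letters and belong to genes of granules and of the myeloid cell surface that fell together. The other lower genes with these letters were Cd5 and Cxcr3, which are not genes of that kind, and the higher gene was Hpgds. Capitals mark the PU.1 letters, which in Mmp8 are on the opposite strand. The windows are those of Mmp8 on the plus strand at chr9:7558179-7558478, of Prtn3 on the plus strand at chr10:79879417-79879716 and of Cd300ld on the minus strand at chr11:114989837-114990136.
Mmp8: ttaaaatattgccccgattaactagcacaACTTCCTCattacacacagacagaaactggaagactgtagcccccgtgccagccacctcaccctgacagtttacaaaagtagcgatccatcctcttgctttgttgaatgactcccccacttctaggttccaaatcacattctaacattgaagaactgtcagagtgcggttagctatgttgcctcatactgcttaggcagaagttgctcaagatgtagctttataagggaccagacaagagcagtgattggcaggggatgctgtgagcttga
Prtn3: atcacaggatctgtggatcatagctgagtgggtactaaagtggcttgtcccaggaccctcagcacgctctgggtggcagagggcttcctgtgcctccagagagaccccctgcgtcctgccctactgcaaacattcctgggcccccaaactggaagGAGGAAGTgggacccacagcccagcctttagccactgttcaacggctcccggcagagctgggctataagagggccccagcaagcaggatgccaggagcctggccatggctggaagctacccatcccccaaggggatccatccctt
Cd300ld: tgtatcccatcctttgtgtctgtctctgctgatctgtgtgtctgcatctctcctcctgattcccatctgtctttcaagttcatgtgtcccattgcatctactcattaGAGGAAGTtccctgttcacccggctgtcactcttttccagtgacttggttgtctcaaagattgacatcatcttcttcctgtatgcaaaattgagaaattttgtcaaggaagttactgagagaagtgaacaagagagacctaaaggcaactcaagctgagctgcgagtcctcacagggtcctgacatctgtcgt

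Other motifs were searched the same way. The AP-1 letters TGAGTCA were in 3 of 24 windows of genes that rose (12.5%), 1 of 50 windows of genes that fell (2%) and 4.63% of all windows. The ISRE-like repeat, a pattern of interferon response elements, was in 2 windows of the higher genes (8.33%), 5 windows of the lower genes (10%) and 3.27% of all windows. The Smad palindrome GTCTAGAC and the NF-κB site were in 0 windows of either group and in 0.245% and 0.448% of all windows. The letters CCAAT were in 4 windows of the higher genes (16.7%), 21 of the lower genes (42%) and 37.4% of all windows.

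Monocyte and macrophage markers were mostly lower at 24 h. Of 24 measured members, 21 were lower, 3 were called lower and 8 passed the adjusted p alone, all 8 lower. Over all genes 49.2% were lower and 3.39% passed the adjusted p alone in that direction. The list median was -0.377, with -0.200, -0.308 and -0.459 in the 3 pairs of arrays. Adgre1, a surface marker gene of mature mouse macrophages, fell by 1.46 ± 0.17, from 9.21, 9.16 and 10.92 to 8.01, 7.50 and 9.39. The groups overlapped because replicate 3 was high at both times, and each pair fell. Fcgr3, a low-affinity IgG receptor gene, went from 9.55, 9.13 and 9.46 to 7.84, 8.09 and 8.00 (-1.40 ± 0.27, adjusted p = 0.0039). Lyz2, the lysozyme gene, fell by 1.11 ± 0.21 (12.71, 12.56 and 13.47, then 11.83, 10.81 and 12.77), with overlapping groups.

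Below the fold limit in that list, Mpeg1, for the pore-forming perforin-2, was at -0.97 ± 0.07 (adjusted p = 2.34e-06), the fractalkine receptor gene Cx3cr1 at -0.94 ± 0.10 (adjusted p = 5.92e-05), and Csf1r at -0.47 ± 0.06 (adjusted p = 0.000227). The integrin gene Itgam differed by less (0.04 ± 0.08, adjusted p = 0.869). The call of Adgre1 was lost without replicate 2 (-1.37) and without the replicate block. That of Lyz2 was lost without replicate 1 (-1.22), replicate 2 (-0.79), the second 12 h array (-1.05), the third 12 h array (-1.03), the first 24 h array (-1.12) or the second 24 h array (-0.78). That of Fcgr3 was lost without replicate 1 (-1.25), replicate 2 (-1.58), the first or the third 12 h array (-1.31 and -1.34) or the first or the third 24 h array (-1.31 and -1.44).

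Some pattern recognition and other myeloid surface genes fell. Toll-like and lectin receptors had 3 called members of 26, all lower (0.281% of all genes), and 8 of the 26 were higher. Tlr8, a sensor of single-stranded RNA, went from 8.17, 7.56 and 9.13 to 6.51, 6.71 and 7.02 (-1.54 ± 0.19, adjusted p = 0.000192), Clec7a, the β-glucan receptor Dectin-1, fell by 1.25 ± 0.11, and Cd300ld, an activating immunoglobulin-like receptor gene, fell by 1.29 ± 0.12. The list median moved with the second 24 h array, being -0.006, -0.641 and -0.211 in the 3 pairs. Pilra, an inhibitory receptor gene, fell by 1.77 ± 0.09 (10.09, 9.70 and 10.55, then 8.32, 7.96 and 8.73). Cd93, a lectin-like receptor gene of early progenitors, fell by 1.40 ± 0.14. Without replicate 1 the calls of Tlr8 (-1.48) and Cd93 (-1.25) were lost, and without replicate 3 that of Tlr8 (-1.25).

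Among genes of matrix, membrane and survival, Fn1 fell by 2.06 ± 0.12, from 10.95, 10.74 and 10.44 to 8.78, 8.75 and 8.43 (adjusted p = 2.72e-07). The arrays of the groups were far apart. Cd81, a tetraspanin gene, fell by 1.71 ± 0.10 and the actin-binding calponin gene Cnn3 by 1.5 ± 0.06. Hacd4, an enzyme gene of very long chain fatty acid synthesis, fell by 1.81 ± 0.14, and Scd1, the stearoyl-CoA desaturase gene, by 1.40 ± 0.17. Scd1 overlapped between the groups (12.35, 11.94 and 10.93, then 11.01, 11.02 and 9.0) and its call was lost without replicate 1 (-1.42). The stem and progenitor transcription factor gene Lyl1 fell by 1.45 ± 0.10. The survival gene Bcl2 was tightly placed, at 12.37, 12.50 and 12.34 and then at 11.29, 11.46 and 11.21 (-1.08 ± 0.07, adjusted p = 7.03e-07). Pltp, the phospholipid transfer protein gene, fell by 1.07 ± 0.15 and the cytochrome oxidase subunit gene Cox6a2, a marker of plasmacytoid dendritic cells, by 1.12 ± 0.08. Cox6a2 was the 1 called gene of 16 measured plasmacytoid markers (0.281% of all genes were called lower). Of these markers 8 were higher and 8 lower, with a median of 0.055. Fn1, Bcl2, Scd1 and Pltp were each the 1 called gene of their list too. Of 24 matrix and adhesion genes (with Fn1) 10 were higher (median -0.028), and of 21 apoptosis and p53 genes (Bcl2) 8 were (median -0.089). Of 23 cholesterol and fatty acid synthesis genes (Scd1) 4 were higher (median -0.102), and of 23 PPAR and lipid handling genes (Pltp) 6 were (median -0.135). Pltp was not called without replicate 1 (just under the fold limit), replicate 2 (-1.08), the third 12 h array (-0.97) or the first 24 h array (-0.96), nor Cox6a2 without replicate 3 (-0.96) or the third 24 h array (-0.99).

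Several genes named for lymphocytes fell, while some other markers of those cells were dim. Cd22, an inhibitory sialic acid-binding receptor gene known from B cells, was at 8.78, 8.68 and 8.78 and then at 7.12, 7.16 and 7.15 (-1.61 ± 0.18, adjusted p = 7.55e-05), with little spread within either group. It was the 1 called gene of 16 B cell markers (0.281% of all genes were called lower). Of these markers 10 were higher, and the median was 0.009. The call of Cd22 was lost without replicate 1 (-1.58). The B cell genes Cd79a (5.72 and 5.70) and Pax5 (7.05 and 7.06) were low at both times. Of 21 T and NK cell markers 10 were higher, the median was -0.002 and 2 were called, both lower (0.281% of all genes). Cd28 fell by 1.13 ± 0.10 (7.84, 7.69 and 7.28 to 6.42, 6.50 and 6.48) and Cd5 by 1.03 ± 0.19 (10.87, 11.04 and 11.01 to 10.35, 9.44 and 10.06), while Cd3e stood at 7.73 and 7.78. The chemokine receptor gene Cxcr3 fell by 1.07 ± 0.12, and Il12a, which encodes the p35 chain of interleukin-12, fell by 1.02 ± 0.12.

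The calls of these genes were less firm than those of Fn1 or Bcl2. Cd28 was not called without replicate 1 (-0.99) or the first 24 h array (-0.98). Cd5 lost its call without replicate 1 (-1.28), 2 (-0.74) or 3 (-1.06), without the first, the second or the third 12 h array (-1.11, -1.03 and -0.94) and without the second 24 h array (-0.68). Cxcr3 lost it without replicate 1 (-1.09) or the third 12 h array (-0.98), and Il12a without replicate 1 (-0.90), replicate 3 (-0.94), the third 12 h array (-0.99), the first 24 h array (-0.89) or the third 24 h array (-0.95).

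**Figure D2:**
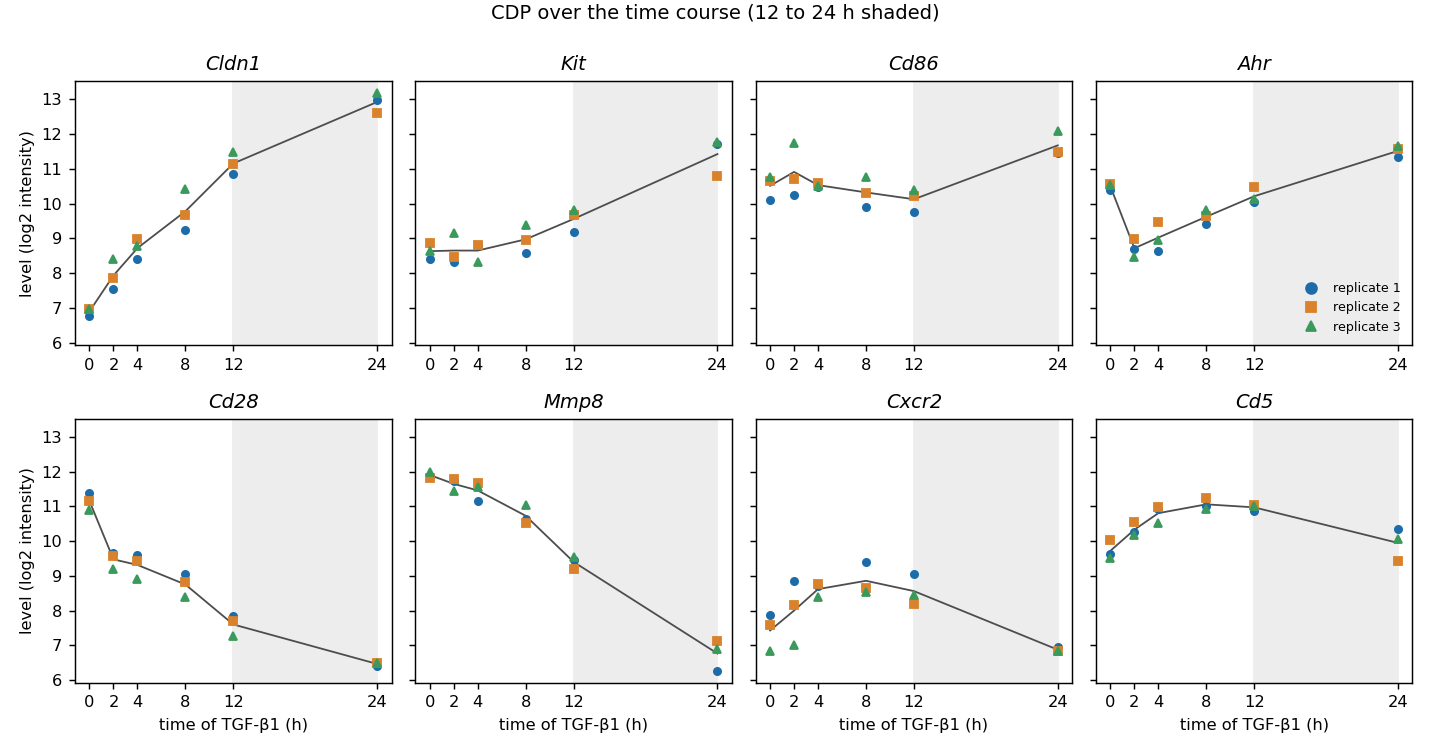
Level of 8 called genes on every CDP array over the time course (horizontal axis, hours of TGF-β1, vertical axis, log2 intensity), with a line through the group means and the step from 12 to 24 h shaded. Cldn1 went on upward and Cd28 and Mmp8 downward, Cxcr2 and Cd5 turned down after a rise, and Kit, Cd86 and Ahr reached their highest mean at 24 h.

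The late step met the earlier course in different ways. The 24 h minus 12 h and the 12 h minus 0 h differences share the 12 h arrays, so their values are given side by side for single genes and not related over genes. Cldn1 had risen by 4.26 ± 0.18 from 0 to 12 h before its late rise of 1.77, Gna14 by 3.66 ± 0.11 before 1.42, and Itgae by 3.30 ± 0.16 before 1.58. Mmp8 differed by -2.50 ± 0.18 from 0 to 12 h and by -2.64 in the late step, and Cd28 by -3.55 ± 0.10 and then by -1.13. These genes continued in 1 direction.

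A second kind of course began late or turned. Cd86 (10.51 at 0 h, 10.13 at 12 h, 11.68 at 24 h) and Cpa3 (6.46, 6.38 and 7.82) had not passed the test from 0 to 12 h. Ahr was at 10.49 at 0 h, dropped to 8.71 at 2 h, was back at 10.21 at 12 h and reached 11.52 at 24 h. Cxcr2 went from 7.43 at 0 h to 8.56 at 12 h and then to 6.87. Cyp4f18, a cytochrome P450 gene whose product degrades leukotriene B4, went from 10.75 to 11.49 and then to 9.73 (-1.76 ± 0.11), Cd5 from 9.72 to 10.98 and 9.95, and Cxcr3 from 7.88 to 9.27 and 8.20. Bcl2 (12.66, 12.40 and 11.32), Scd1 (11.81, 11.74 and 10.34) and Prtn3 (12.38, 12.11 and 11.02) had differed by 0.26 or less between 0 and 12 h.

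None of the genes in the TGF-β pathway lists was called in the late step. Of 26 ligands, receptors and Smads 1 was higher and 3 were lower at the adjusted p alone, against 1.19% and 3.39% of all genes. The feedback inhibitor list had 0 called members of 20 in limma, where 0.431% of all genes were called, and a median of 0.006. At the adjusted p alone 2 members passed, both lower, against 3.39% of all genes in that direction. Smad7 was at 10.62, 10.77 and 10.71 and then at 10.67, 10.76 and 10.87 (0.07 ± 0.08, adjusted p = 0.705). Skil differed by -0.01 ± 0.12 and the Smad-binding membrane gene Pmepa1 by 0.05 ± 0.23. All 3 had risen before 12 h, by 1.67 ± 0.08, 1.80 ± 0.12 and 4.15 ± 0.23. The corepressor gene Ski (-0.44 ± 0.09, adjusted p = 0.00691) and the inhibitory Smad6 (-0.36 ± 0.08, adjusted p = 0.00806) were lower by less than the fold limit, and so was the signal transducer Smad3 (8.41, 8.23 and 8.65, then 7.71, 7.75 and 7.87, -0.65 ± 0.08, adjusted p = 0.000227).

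Other genes with large differences between 0 and 12 h had small differences afterwards too. The matrix gene Chad, up by 4.50 ± 0.14 from 0 to 12 h, differed by -0.07 ± 0.14 in the late step. Vcan, for the proteoglycan versican, had differed by -4.46 ± 0.12 and then differed by -0.23 ± 0.12 (adjusted p = 0.327). The receptor tyrosine kinase gene Axl had risen by 3.25 ± 0.28 and then differed by 0.46 ± 0.28 (adjusted p = 0.399). Among 26 ligands, receptors and Smads the only difference of 1 or more was that of the ligand gene Tgfb3 (8.72, 9.21 and 8.22, then 9.09, 11.79 and 8.89, 1.21 ± 0.43, adjusted p = 0.102). Its size came mostly from the second 24 h array, although each pair rose (0.37, 2.58 and 0.67). In MPP Tgfb3 rose by 0.50 ± 0.06 in the late step (adjusted p = 0.000159), below the fold limit.

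Genes of DNA replication were lower at 24 h by small and even amounts. Of 30 measured S phase genes 30 were lower, and in 30 of 30 each 24 h array lay below each 12 h array, where 13.8% of all genes did so. None was called with the fold limit, 16 passed the adjusted p alone, and the list median was -0.300 (-0.284, -0.306 and -0.267 in the 3 pairs). Cdt1, a licensing factor gene for replication origins, differed most (10.93, 11.18 and 10.81, then 10.35, 10.54 and 10.18, -0.62 ± 0.10, adjusted p = 0.000946), followed by the licensing gene Cdc6 (-0.44 ± 0.07, adjusted p = 0.000879). The helicase gene Mcm2 was at -0.28 ± 0.06 (adjusted p = 0.00468) and the sliding clamp gene Pcna at -0.20 ± 0.05 (adjusted p = 0.0222). Over the course the mean level of the list was 11.17 at 0 h, 11.11 at 12 h and 10.81 at 24 h. The number passing the adjusted p was 0 without replicate 1, 1 without replicate 2, 3 without replicate 3, 3 to 5 without any single 12 h array or the first 24 h array, 7 without the second, 10 without the third and 7 without the replicate block, while the median stayed between -0.310 and -0.275 in these settings.

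**Figure D3:**
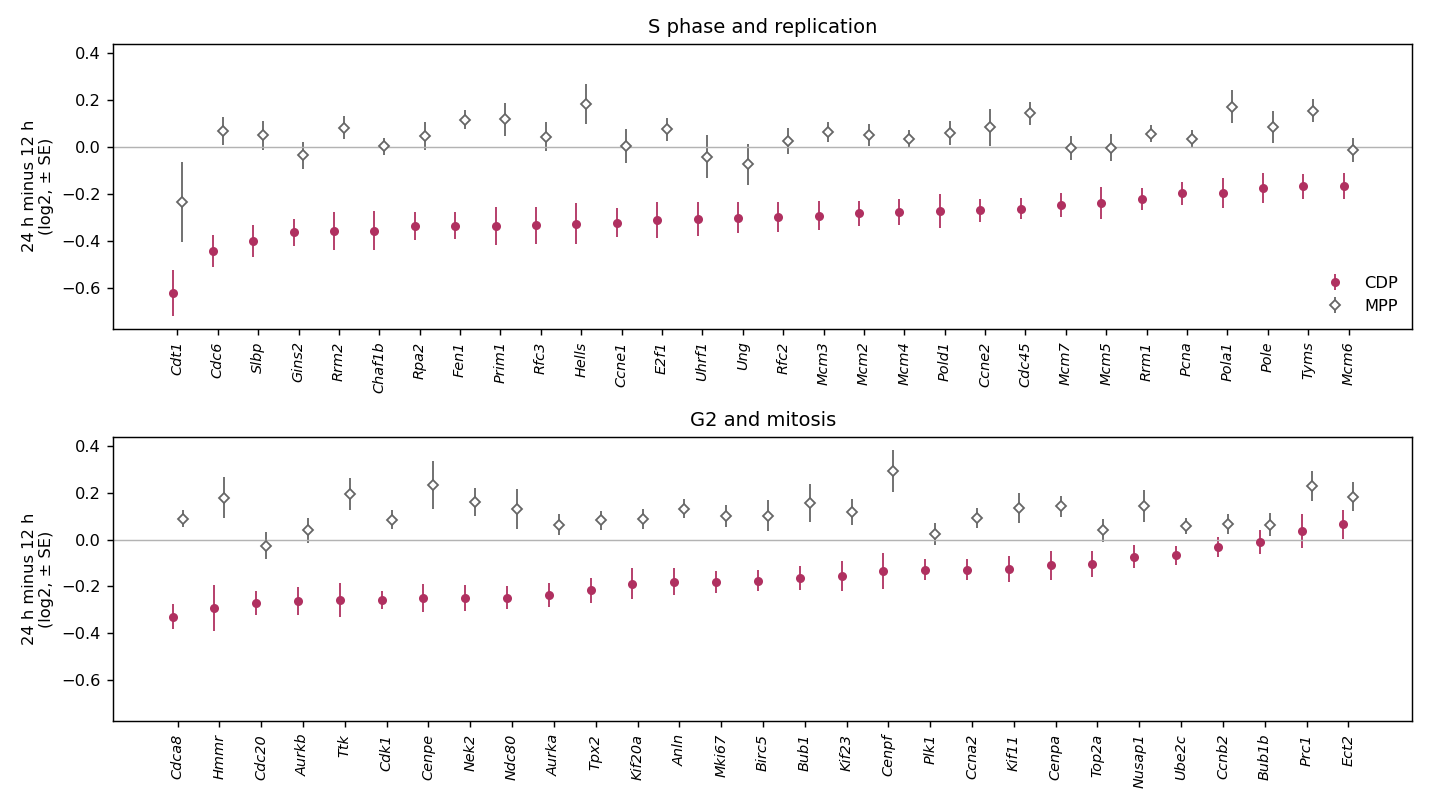
Late step (24 h minus 12 h, log2, ± SE) of each measured S phase gene (top) and G2 and mitosis gene (bottom) in CDP (filled) and MPP (open). All 30 S phase values of CDP lie below 0, with a median of -0.300, while the MPP values lie around a median of 0.050.

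Of 29 genes of G2 and mitosis 27 were lower, the median was -0.175 and 6 passed the adjusted p alone, where 49.2% of all genes were lower and 3.39% passed in that direction. Cdca8, a chromosome passenger gene, was at 11.22, 11.29 and 11.10 and then at 10.93, 10.87 and 10.83 (-0.33 ± 0.05, adjusted p = 0.00128). The proliferation marker Mki67 differed by -0.18 ± 0.05 (adjusted p = 0.0267). Leaving out 1 replicate number at all times brought the 6 to 0. In MPP the median late step was 0.050 for the S phase genes and 0.101 for G2 and mitosis. The difference between the cell types passed the adjusted p alone in 12 of 30 and in 8 of 29 genes, all lower in CDP, against 2.67% of all genes in that direction.

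Glycolysis and hypoxia genes were lower in 20 of 22 with a median of -0.497, but the pairs differed (-0.808, -0.097 and -0.443), with the second pair near 0. Over all genes 49.2% were lower and 3.39% passed the adjusted p alone in that direction. The aldolase gene Aldoa (-0.38 ± 0.06, adjusted p = 0.000721) and the phosphoglycerate kinase gene Pgk1 (-0.57 ± 0.09, adjusted p = 0.0011) were among the 5 that passed the adjusted p alone, and none was called. Bnip3, a mitophagy gene induced by hypoxia, was at 12.06, 11.87 and 10.57 and then at 10.19, 11.60 and 9.75 (-0.99 ± 0.28, adjusted p = 0.0378). It and the lactate transporter gene Slc16a3 were called without the second 24 h array (-1.41 and -1.30), and 12 of the 22 then passed the adjusted p. Phgdh, which encodes the first enzyme of serine synthesis, was placed more evenly (10.51, 10.37 and 10.60, then 9.68, 9.58 and 9.48, -0.91 ± 0.07, adjusted p = 3.02e-06). With it, from the same list of amino acid genes, the serine pathway genes Psat1 (-0.54 ± 0.06) and Shmt2 (-0.51 ± 0.07) passed the adjusted p below the fold limit.

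Conventional dendritic cell genes had 0 called members of 23 in limma, where 0.431% of all genes were called, and a median of 0.032. At the adjusted p alone 2 were higher and 2 lower, against 1.19% and 3.39% of all genes. Cadm1, an adhesion gene of cross-presenting dendritic cells, was at 9.10, 9.66 and 10.19 and then at 8.62, 8.61 and 9.40 (-0.77 ± 0.13, adjusted p = 0.00131), with overlapping groups. Irf8 differed by -0.66 ± 0.06 (13.17, 13.12 and 13.18, then 12.58, 12.39 and 12.51, adjusted p = 1.69e-05), without reaching the fold limit. Zbtb46, a factor gene of conventional dendritic cells, was higher by 0.40 ± 0.07 (adjusted p = 0.0034) and the integrin gene Itgax, for CD11c, by 0.49 ± 0.08 (adjusted p = 0.002). The nuclear receptor gene Nr4a3 was at 6.65, 6.65 and 7.71 and then at 8.34, 6.74 and 8.80 (0.95 ± 0.46, adjusted p = 0.266), again with the second 24 h array low. Clec9a, a receptor gene of cross-presenting cells, was dim and did not overlap (-0.43 ± 0.10, adjusted p = 0.0102). Irf4 was at 10.11, 10.29 and 10.14 and then at 10.71, 11.02 and 10.46 (0.55 ± 0.16, adjusted p = 0.0409). Flt3 (-0.15 ± 0.10), Id2 (0.13 ± 0.05) and the plasmacytoid factor gene Tcf4 (-0.17 ± 0.05) did not pass. Xcr1, a marker of cross-presenting dendritic cells, was dim at both times (6.64 and 6.65).

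MHC class II genes were higher in 12 of 12, with a median of 0.327 and with 0.564, 0.280 and 0.223 in the 3 pairs. None was called and 5 passed the adjusted p alone, where 1.19% of all genes did so in that direction. H2-Eb1, a class II β chain gene, was at 12.10, 12.30 and 12.78 and then at 13.12, 12.74 and 13.31 (0.66 ± 0.12, adjusted p = 0.00283). H2-Ab1 differed by 0.58 ± 0.11, H2-Aa by 0.57 ± 0.11 and H2-Oa by 0.49 ± 0.08. Ciita, the class II transactivator gene, was at 0.73 ± 0.17 (adjusted p = 0.0169). Without replicate 1 and without the replicate block 0 of the 12 passed the adjusted p, without replicate 2, replicate 3, the first or the third 12 h array 1 did, and without the second 12 h or the first 24 h array 3 did.

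**Figure D4:**
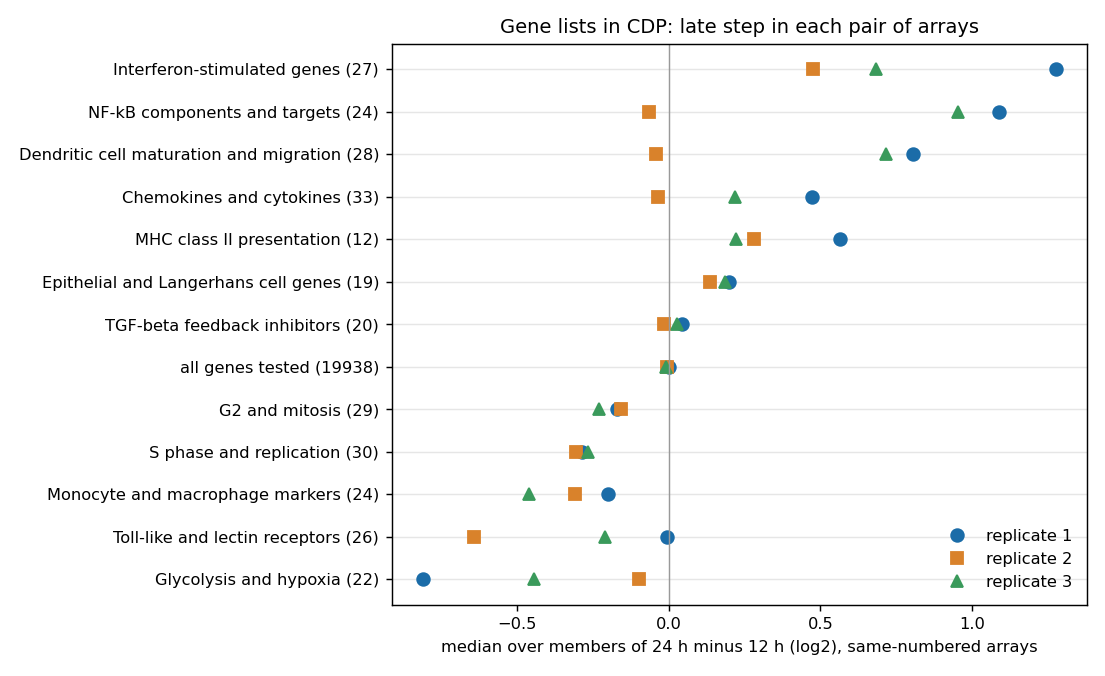
Median late step of 12 gene lists and of all genes (horizontal axis, 24 h minus 12 h on the log2 scale) in each same-numbered pair of arrays, with the number of measured genes in brackets. Replicate 2 lies near 0 for the NF-κB, maturation and chemokine lists, while the S phase list is nearly the same in all pairs.

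The NF-κB and maturation lists were higher in 2 of the 3 pairs and the interferon list in all 3. NF-κB components and targets had a median late step of 0.699, which was 1.088 and 0.953 in pairs 1 and 3 and -0.063 in pair 2. For dendritic cell maturation genes the pairs were at 0.804, 0.718 and -0.041, and for interferon-stimulated genes at 1.276, 0.684 and 0.476. Il1a, the interleukin-1α gene, shows it most plainly, with 6.47, 6.68 and 6.84 at 12 h and 10.42, 6.62 and 10.65 at 24 h. The second 24 h array stayed at the 12 h level while the other arrays were far above it. Il12b (6.64, 6.81 and 8.18, then 9.89, 6.76 and 9.99), the chemokine gene Ccl22 (7.06, 7.44 and 8.73, then 10.51, 7.40 and 10.70) and the maturation marker Cd83 (8.66, 8.92 and 9.53, then 11.42, 8.62 and 11.28) had the same arrangement.

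With all arrays none of these 4 genes was called (2.57 ± 1.01, 1.67 ± 0.55, 1.80 ± 0.61 and 1.40 ± 0.52). Of 27 interferon-stimulated genes and of 24 NF-κB genes 0 were called and 0 passed the adjusted p alone in limma, although 26 and 23 were higher, and of 28 maturation genes only Cd86 was called. Over all genes 37 differed by 1 or more without being called, 35 of them higher, and pair 2 gave the smallest of the 3 differences in 23, as it did in 51 of the 86 called genes. Without the second 24 h array 126 genes were called (0.632%), 61 higher (0.306%) and 65 lower (0.326%), and 78 of the 86 were among them. Ccl22 (2.58 ± 0.56, adjusted p = 0.0096), Il12b (2.45 ± 0.46), Ccl3 (2.42 ± 0.50), Cd83 (2.14 ± 0.44), Relb (1.28 ± 0.23) and Cd80 (1.16 ± 0.25) were then called, each from 2 arrays at 24 h. The maturation list then had 7 called members and a median of 0.764. Usp18, an interferon-stimulated gene, was at 8.49, 8.57 and 10.44 and then at 11.34, 9.96 and 11.83 (1.87 ± 0.69, adjusted p = 0.119), so that for interferon genes the third 12 h array was high as well.

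Some genes were highest on the second 24 h array. Ahrr, the repressor gene of the aryl hydrocarbon receptor, was at 6.70, 6.74 and 7.03 and then at 6.77, 9.59 and 7.48 (1.12 ± 0.43, adjusted p = 0.14). Hic1, a transcriptional repressor gene, was at 9.57, 10.06 and 8.80 and then at 9.84, 12.29 and 10.78 (1.49 ± 0.35, adjusted p = 0.0139), so that the third 24 h array also lay above all 12 h arrays. The receptor gene Ahr itself did not set this array apart (11.33, 11.57 and 11.65). What distinguished this culture or array was not tested.

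**Figure D5:**
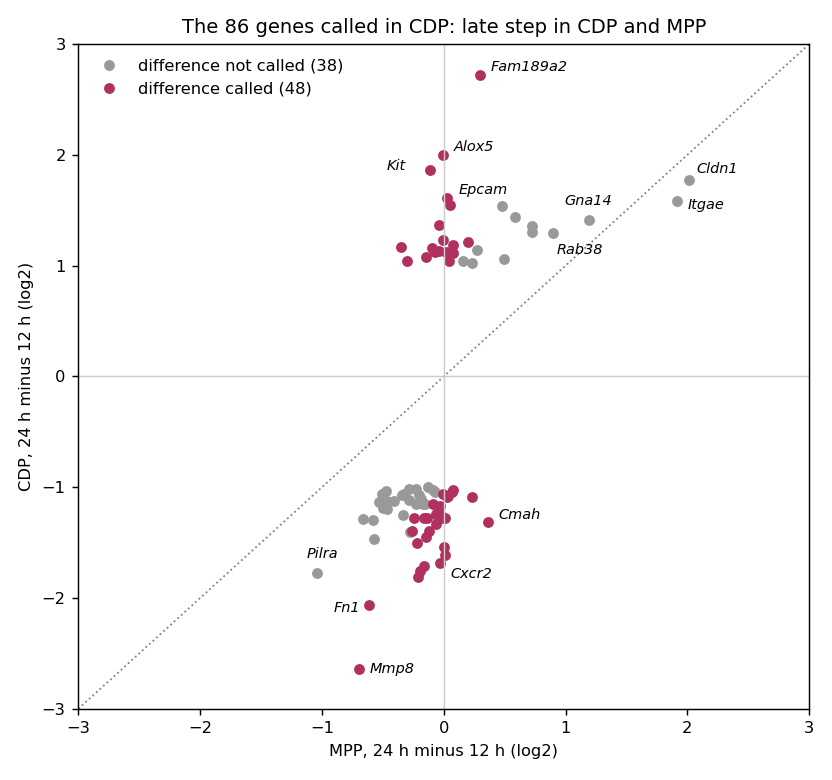
The 86 genes called in CDP, with the late step of MPP on the horizontal and that of CDP on the vertical axis (24 h minus 12 h, log2) and a dotted line of equal change. Cldn1, Itgae and Gna14 lie near the line, and Fam189a2 (0.30 in MPP, 2.72 in CDP) and Alox5 (-0.01 and 2.00) lie far above it.

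Over the same hours MPP had fewer called genes. In MPP 14 genes were called (0.0702%), 9 higher and 5 lower. The difference of the late steps, CDP minus MPP, was tested on all 36 arrays and called for 74 genes (0.371%), 36 higher (0.181%) and 38 lower (0.191%). At the adjusted p alone 166 differences were higher (0.833%) and 533 lower (2.67%). Of the genes called in CDP, the difference was called with the fold limit for 18 of 30 higher and 30 of 56 lower ones. All of these differences were in the direction of the CDP change. The 30 genes that rose in CDP had a median late step of 1.22 in CDP and of 0.08 in MPP, and the 56 that fell had -1.22 and -0.18. The MPP step had the sign of the CDP step in 20 of the 30 and in 47 of the 56. The genes were chosen by their CDP change, so these medians and counts describe them and are no test.

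Fam189a2 differed by 2.43 ± 0.20 between the cell types, Alox5 by 2.00 ± 0.21, Kit by 1.98 ± 0.28 and Epcam by 1.58 ± 0.11. In MPP these genes moved by 0.30 ± 0.06, -0.01 ± 0.05, -0.11 ± 0.05 and 0.03 ± 0.07. Alox5, at 9.44 at both times, and Kit, at 11.28 and 11.16, were bright in MPP from the start, whereas Epcam was dim there (6.43 and 6.46). Among the falls Mmp8 differed by -1.94 ± 0.27, Cmah, whose enzyme hydroxylates sialic acid, by -1.68 ± 0.17, Cxcr2 by -1.66 ± 0.29 and Bcl2 by -1.31 ± 0.11. In MPP these genes moved by -0.70 ± 0.17, 0.36 ± 0.08, -0.03 ± 0.12 and 0.23 ± 0.07. Some falls were shared. In MPP Pilra moved by -1.04 ± 0.15 (adjusted p = 0.00183) and Adgre1 by -0.58 ± 0.08 (adjusted p = 0.00106), and their differences were not called. The granule genes Ctsg (13.61 and 13.62) and Prtn3 (13.74 and 13.77) stayed bright in MPP, and the difference was -1.29 ± 0.11 and -1.12 ± 0.14. Without replicate 1 at all times the difference of Kit (1.71), Cxcr2 (-1.54) and Prtn3 (-1.04) was not called, that of Prtn3 was -0.96 without replicate 3 and -0.98 without the third CDP array at 24 h, and that of Cxcr2 was lost without replicate 2 (-1.72).

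Cldn1, Itgae and Gna14 rose in both cell types. Their late steps in MPP were 2.01 ± 0.14, 1.91 ± 0.12 and 1.19 ± 0.11, and the differences of -0.24 ± 0.24, -0.33 ± 0.22 and 0.22 ± 0.16 did not pass (adjusted p = 0.668, 0.443 and 0.527), which does not show that they were equal. Ly6i (2.88 ± 0.65), of a family of closely similar genes, Rasgef1b (2.59 ± 0.55) and Ehd1 (1.60 ± 0.37) had called differences without a called change in CDP. Rasgef1b was at 8.30, 8.80 and 9.22 and then at 11.38, 10.13 and 11.49 in CDP, with an adjusted p of 0.0103 that just missed the limit. These 3 differences were lost in 12, 9 and 14 of the 22 settings tried, with values between 2.33 and 3.37 for Ly6i, 2.18 and 2.87 for Rasgef1b, and 1.39 and 1.85 for Ehd1.

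The fold limit separated genes of nearly the same size. Just inside it were Tmem51 (-1.0022), Csf3r (-1.0149) and Fxyd7 (-1.0198), and just outside, with an adjusted p under the limit, Cpq (-0.9956), Rftn1 (-0.9927) and Adgre5 (-0.9883).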

How the data were processed

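RNA levels were measured on 36 Affymetrix Mouse Gene 1.0 ST arrays of CDP and MPP. The deposited values are log2 intensities of 35556 probe sets, which per the labels' processing notes the authors made with Affymetrix Power Tools and RMA (versions and genome build not given in the sources used here). RMA forces all arrays to 1 distribution, so changes are relative, and it compresses changes of dim genes. The study's own statistics used FARMS values, not used here. Labels name 8 h arrays where 1 protocol text gives 6 h. This concerns no array compared here.

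By the platform annotation 21789 probe sets have 1 symbol, 1621 several and 12146 none. For each of 19938 genes 1 probe set was kept, by highest mean level (999 genes had more than 1). limma 3.58.1 (R 4.3.3, lmFit, eBayes) was fitted on the 18 CDP arrays, with groups and the replicate number as block, and on all 36 arrays for CDP minus MPP. Tests are two-sided and adjusted over all genes. The scripts were tested on simulated data. Same-numbered arrays at 12 and 24 h deviated together (correlations 0.34, 0.39 and 0.635), so the block was kept.

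Named genes were drawn from the 15 largest rises and falls, called members of 33 gene lists (812 entries, 744 measured), or the 2 largest changes of a list with no call, the 6 largest called differences to MPP each way and 12 fixed genes. Others (Cd3e, Il12b, Tjp1, Ahrr, Tbxas1 and further list members or markers) were chosen after their values were seen. Members and lists were chosen with earlier results of these data known. Alternatives were other blocks, arrays, scalings, filters and thresholds and leaving out arrays. The number of arrays limits the precision.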

Additional observations from a re-analysis of the deposited data

Results flagged for a closer look

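The late step differed between CDP and MPP for 74 genes (interaction contrast in limma), and this difference marks the following named genes. Higher in CDP than in MPP were the differences of Ly6i (2.88), Rasgef1b (2.59), Fam189a2 (2.43), Alox5 (2.01), Kit (1.98), Ehd1 (1.60), Epcam (1.58), Cd86 (1.5), P2rx5 (1.41) and Mcoln2 (1.23), all on the log2 scale. Lower were those of the enzyme and matrix genes Mmp8 (-1.95), Cmah (-1.68), Hacd4 (-1.60), Cyp4f18 (-1.56), Fn1 (-1.45), Ctsg (-1.29), Scd1 (-1.14) and Prtn3 (-1.12), of the surface genes Cxcr2 (-1.66), Cd22 (-1.62), Cd81 (-1.55), Tlr8 (-1.54), Cd93 (-1.28), Clec7a (-1.20) and Cd5 (-1.10), and of Bcl2 (-1.31), Lyl1 (-1.30) and Cnn3 (-1.28). Without replicate 1 the differences of Ly6i, Rasgef1b, Ehd1, Kit, Cd86, P2rx5, Cxcr2, Cd93, Tlr8, Scd1, Prtn3 and Cd5 were not called. Cd22 was already low in MPP, with a mean of 7 at 12 and at 24 h, against 7.14 in CDP at 24 h. Its difference therefore rests on the change in CDP.

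Probe sets without a single gene symbol take no part in the comparisons. Fitted apart, 22 of 13767 were called between 12 and 24 h of CDP, 5 with several symbols and 17 with none, and 22 of the 22 were lower at 24 h.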

How the results depend on the processing

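For CDP 24 h against 12 h, the 86 called genes were 63 with no replicate block (22 higher, 41 lower), within 1.5 times. It ended the calls of Adgre1, Cd86, Clec7a, Cmah, Csf3r, Cxcr2, Cxcr3, Hp, Hpgds, Lyz2, P2rx5, Scd1 and Tlr8 among the named genes. For the late step of CDP minus late step of MPP, the fit with no replicate block gave 41 in place of 74 differences (16 higher, 25 lower), without those of Cd86, Cd93, Clec7a, Cmah, Cxcr2, Ehd1, Fn1, Ly6i, P2rx5, Rasgef1b, Scd1 and Tlr8. With no fold limit 912 genes passed (237 higher, 675 lower) and 699 differences (166 higher, 533 lower). At an adjusted p under 0.05, 56 differences were higher. Leaving out arrays gave between 49 (without replicate 1) and 126 (without the second 24 h array) genes in CDP, 15 to 61 higher and 34 to 65 lower. The differences then numbered between 38 and 131, 13 to 77 higher and 25 to 54 lower, with the same settings at the ends of the total. Within 1.5 times stayed the CDP counts with the 6 arrays alone (74), all 36 arrays (101), dim genes left out (87), centred arrays (86), renewed quantile normalization (83), mean probe sets (86), trend and robust settings (80) and an adjusted p under 0.05 (96). Of the 45 named called genes followed through these settings, none had a value that changed sign. Of these genes 20 kept the call in all settings and 25 lost it in at least 1. Medians of gene lists moved by more than the spread of the 3 pairs in 54 of 594 cases. The causes were not tested. Arrays give signal over background and no depth, and dim genes have compressed differences.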
